A study of Mus musculus with 24 samples.

Results

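Nuclear-encoded respiratory chain genes are the genes of the cell nucleus for the enzyme complexes of oxidative phosphorylation in the inner mitochondrial membrane. They were taken here as the genes on the array named Nduf- (complex I), Sdha to Sdhd (complex II), Uqcr- (complex III), Cox4- to Cox8- (complex IV) and Atp5- (ATP synthase, complex V), without Cox8b and Cox7a1, which were kept apart as markers of brown fat. The rule found 88 genes on 132 of 55681 probes, and each gene is given by its brightest probe over all arrays. Of these genes, 36 encode subunits of complex I, 4 of complex II, 8 of complex III, 11 of complex IV and 15 of complex V. Another 6 are isoforms or paralogs known from restricted tissues, 5 are assembly factors, and 3 (Atp5s, Atp5sl and Cox4nb) are named alike but encode no subunit. The probes of 86 genes were well above background on all 24 arrays, and those of 2, Cox7b2 and Cox8c, which are known from testis, on none.

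Mammary gland RNA came from female mice of 2 inbred strains, BALB/c and SPRET/EiJ, the second derived from another mouse species, Mus spretus. The mice received whole-body X-rays at 8 to 9 weeks of age, as a single 10 cGy dose of low-dose ionizing radiation (LDIR), or sham treatment. BALB/c glands were collected after 2, 4 or 8 weeks and SPRET/EiJ glands after 4 weeks, from 3 LDIR and 3 sham mice at each time, giving 8 groups. No transgene or deletion is named for any group, and each mouse has an array of its own with a single dye (Cy3). A level below is the log2 intensity of a probe minus the 75th percentile of its array, so a difference of 1 is a doubling, and levels are compared between arrays but not between probes.

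Complexes I and II take electrons from NADH and succinate, complex III passes them to cytochrome c, and complex IV passes them on to oxygen. Complexes I, III and IV pump protons across the inner membrane, and complex V uses the returning protons to make ATP. Most subunits are nuclear genes, while a small core of complexes I, III, IV and V is made from mitochondrial DNA. The mammary gland is a tree of epithelial ducts in a fat pad, and its fat holds white adipocytes and, in young mice, cells with the character of brown fat, which is rich in mitochondria. The nuclear genes are known targets of the factors NRF1, GABP (of the ETS family), YY1 and the estrogen-related receptors (ERR), with the coactivators PGC-1 alpha (Ppargc1a) and PGC-1 beta (Ppargc1b).

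Upstream sequences are shown for the 4 genes with the largest falls between 4 and 8 weeks, since these genes moved together. The RefSeq table (build GRCm38.p6) held windows for 72 of the 88 genes, 78 in all, and the 250 bases before each start site were searched on both strands for CGCATGCG (the core of the NRF1 motif), CCGGAAG (ETS), AAGGTCA (ERR) and AAGATGGCG (YY1). No motif overlaps another in the windows shown, and a match is marked in capitals.
Ndufa4, chr6:11907451-11907700, minus strand: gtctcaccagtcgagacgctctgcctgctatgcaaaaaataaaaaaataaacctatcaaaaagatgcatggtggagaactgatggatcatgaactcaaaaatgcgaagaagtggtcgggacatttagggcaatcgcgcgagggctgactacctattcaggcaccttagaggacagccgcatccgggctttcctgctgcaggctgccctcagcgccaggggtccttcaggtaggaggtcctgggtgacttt
Uqcr11, chr10:80406822-80407071, minus strand: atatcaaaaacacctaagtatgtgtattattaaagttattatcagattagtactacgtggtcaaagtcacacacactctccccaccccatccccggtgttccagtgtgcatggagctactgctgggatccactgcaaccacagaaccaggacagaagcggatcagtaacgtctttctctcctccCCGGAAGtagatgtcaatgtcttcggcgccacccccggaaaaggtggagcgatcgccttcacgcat
Atp5k, chr5:108434400-108434649, minus strand: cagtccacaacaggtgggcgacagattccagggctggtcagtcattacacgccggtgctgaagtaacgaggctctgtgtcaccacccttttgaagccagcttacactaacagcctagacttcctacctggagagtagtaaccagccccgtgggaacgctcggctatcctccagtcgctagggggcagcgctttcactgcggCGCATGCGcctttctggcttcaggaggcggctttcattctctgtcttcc
Uqcr10, chr11:4704345-4704594, minus strand: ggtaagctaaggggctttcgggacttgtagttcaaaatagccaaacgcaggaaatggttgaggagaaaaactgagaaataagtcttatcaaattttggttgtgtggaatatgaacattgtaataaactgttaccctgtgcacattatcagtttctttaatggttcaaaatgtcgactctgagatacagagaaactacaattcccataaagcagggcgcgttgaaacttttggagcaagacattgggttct

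Of these windows, that of Atp5k holds the NRF1 letters and that of Uqcr11 the ETS letters, while those of Ndufa4 and Uqcr10 hold none of the 4 motifs. The NRF1 letters stood in 10.3% of the windows of respiratory chain genes and in 1.55% of all 32851 windows. The ETS letters stood in 16.7% against 6.91%, the ERR letters in 6.4% against 4.08% and the YY1 letters in 2.6% against 0.61%. The windows of respiratory chain genes also held more G and C, with a median of 57.0% against 52.4%. Among genes with a window, the NRF1 letters occurred in 2 of 28 genes that fell between 4 and 8 weeks and in 6 of the 44 others, and the ETS letters in 6 of 28 and 7 of 44. These counts describe letters in a window and not bound sites.

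The arrays lay on 3 slides. The first held all BALB/c arrays of 2 weeks and sham replicates A and B of 4 weeks. The second held sham replicate C and the LDIR arrays of 4 weeks, with the sham arrays and LDIR replicate A of 8 weeks, and the third held LDIR replicates B and C of 8 weeks and all SPRET/EiJ arrays. The share of probes well above background ran from 57.1% to 72.6% over the arrays. All 8 luminal epithelial markers were above background on every array, as the labelled tissue requires. On 3 arrays (8-week sham A, 8-week LDIR B and SPRET/EiJ LDIR A) the summed level of 6 lymphocyte markers was 6.87, 7.20 and 6.85, against 2.61 to 3.96 on the other arrays. Each of these 3 arrays also had the lowest respiratory chain level of its group. For each comparison of groups that includes them, a count or median of the respiratory chain genes is therefore also given without them. The comparison over both treatments within a slide is given only with them. So are the group means, the values by complex and by further probe, and the marker and pathway lists.

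Levels of the respiratory chain genes were lowest in BALB/c at 8 weeks. The median level of the 88 genes on an array averaged 5.79 ± 0.14 (SD, n = 3) in BALB/c sham glands at 2 weeks, 5.76 ± 0.30 at 4 weeks and 4.96 ± 0.34 at 8 weeks. In LDIR glands the same averages were 5.76 ± 0.31, 5.45 ± 0.24 and 4.96 ± 0.41. In SPRET/EiJ at 4 weeks they were 5.85 ± 0.12 in sham and 5.51 ± 0.63 in LDIR glands. The 3 sham arrays of 8 weeks, at 4.58, 5.08 and 5.22, all lay below the 3 of 4 weeks, at 5.48, 5.73 and 6.07, whereas the sham and LDIR groups of the same time and strain overlapped. Of the 88 genes, 72 had their lowest group mean at 8 weeks, 28 in sham and 44 in LDIR glands, and 55 had their highest in SPRET/EiJ sham glands. The 44 include Cox7b2 and Cox8c, which are below background. The shares of all probes lowest or highest in these groups are not given, so the counts are not set against the array. The count for SPRET/EiJ is also open to slide and to base differences under a probe.

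**Figure D1:**
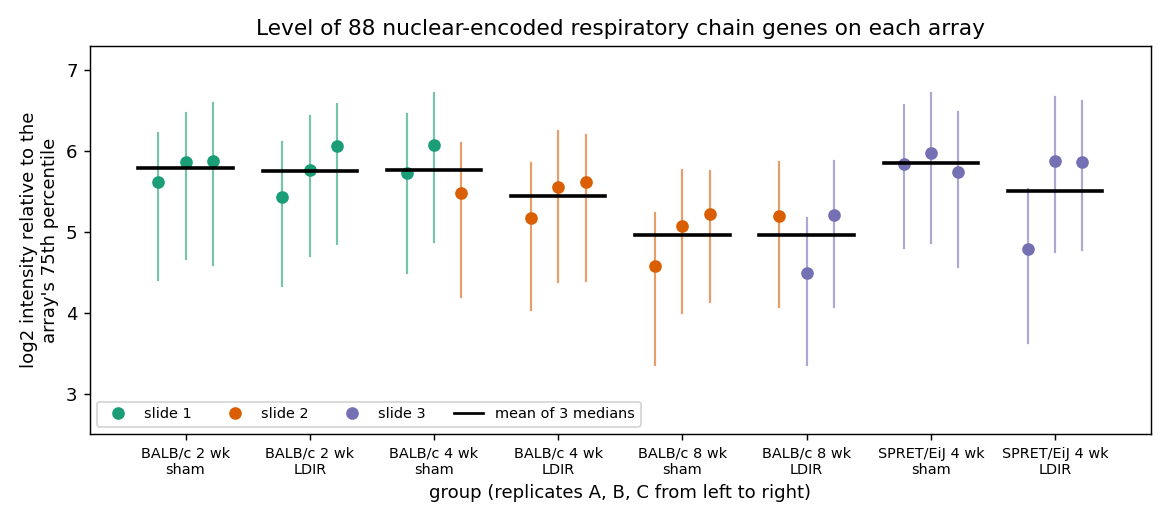
Level of the 88 respiratory chain genes on each of the 24 arrays. The y axis is log2 intensity relative to the 75th percentile of the array, points are medians over the genes, thin bars run from the lower to the upper quartile, the black line is the mean of the 3 medians of a group, and colours are slides. The 3 sham arrays of 8 weeks sit between 4.58 and 5.22, below the 3 of 4 weeks at 5.48 to 6.07.

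The genes moved together from array to array. Within groups the SD of a gene had a median of 0.35 and ran from 0.15 to 1.94, the last for Cox6a2, against a median of 0.31 over the 29393 probes above background on all arrays. On the array of the first LDIR mouse at 2 weeks, for example, 82 of 88 genes lay below their group mean. The median of all probes was -3.199 on that array and -3.202 and -3.185 on replicates B and C. The share of other bright probes below their group mean is not given. The array with the lowest respiratory chain median of its group was also lowest for 17 genes of the tricarboxylic acid (TCA) cycle in 8 of 8 groups, for the 10 white adipocyte markers in 7 of 8, for the 10 brown adipocyte markers in 6 of 8 and for the 8 luminal epithelial markers in 3 of 8. These are counts over groups of 3 arrays and were not tested.

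**Figure D2:**
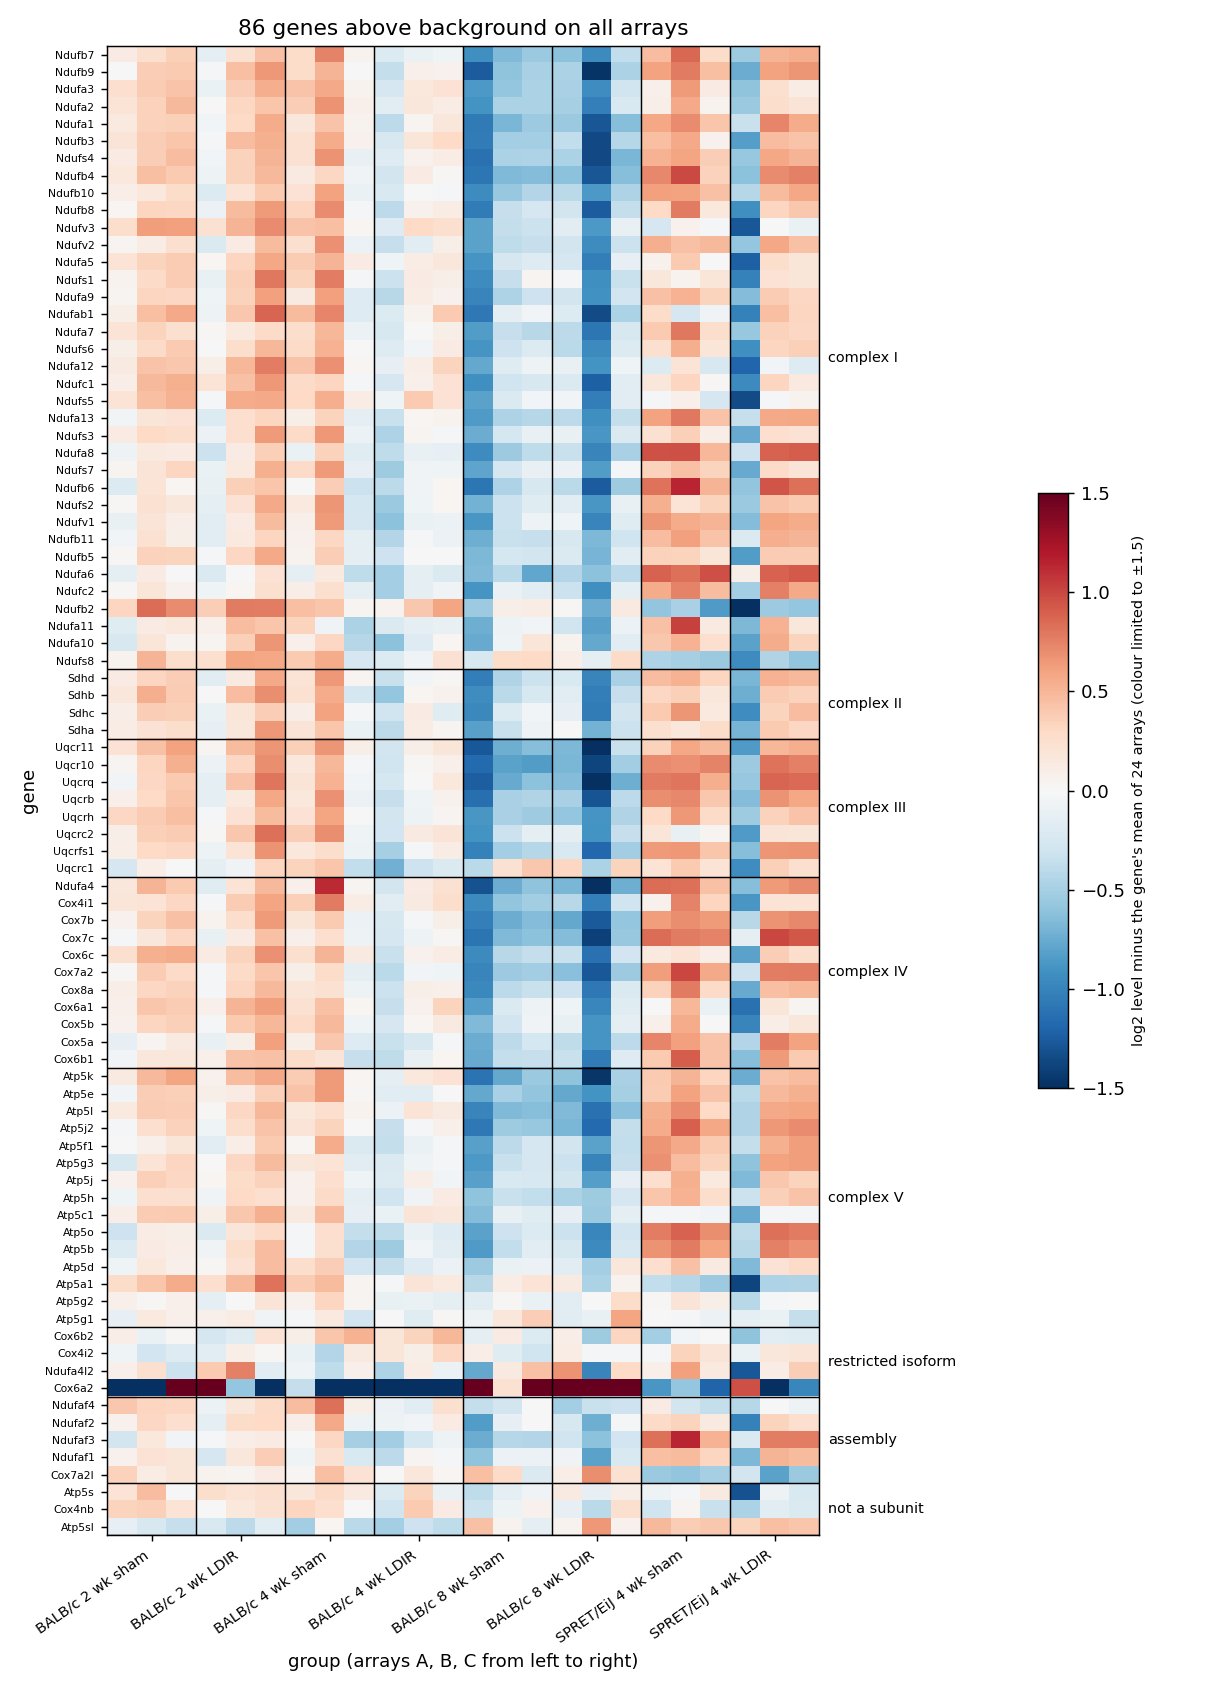
Level of each of the 86 genes above background on all arrays (rows, by complex, those that fell most between 4 and 8 weeks first) on the 24 arrays (columns, by group). Colour is the log2 level minus the mean of the gene over the 24 arrays, limited to ±1.5. Most rows are blue in the 2 groups of 8 weeks and on SPRET/EiJ LDIR replicate A, and Cox6a2 follows a pattern of its own.

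Sham BALB/c glands were compared at 8 and 4 weeks to describe the genes without irradiation. Here 35 of 88 genes (39.8%) fell past the thresholds (unadjusted limma p under 0.05 and over 1.5-fold) and 1, Cox6a2, rose. Of all probes 7.98% fell and 5.73% rose, and of those above background on all arrays of either group 11.2% fell. The median difference was -0.65 (log2), with 81 of 88 genes below 0, against -0.04 over the probes above background and 43.9% of all probes below 0. The 35 genes fell by 1.59-fold to 2.46-fold, and in all 35 the groups did not overlap. In 55 genes all 8-week values lay below all 4-week values, against 18.8% of the probes above background. No gene passed Benjamini-Hochberg adjustment over all probes (smallest limma adjusted p 0.153), and no other probe of the array did.

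Most of these 6 arrays differ in slide as well as in week, since sham replicates A and B of 4 weeks were on slide 1 and the other 4 on slide 2. With slide as a block, which sets the 8-week arrays against sham replicate C alone, the median was -0.37 with 78 of 88 genes below 0, and Cox6a2 was the single gene past the thresholds. Slide 2 also held 4 arrays of 4 weeks and 4 of 8 weeks when both treatments were taken, a comparison chosen after the data were seen. In it, with treatment as a covariate, 17 of 88 genes (19.3%) fell and Cox6a2 rose, against 9.66% of all probes and 12.7% of those above background that fell and 3.89% of all probes that rose. The median was -0.27 against -0.13 over the probes above background, and all 17 genes were among the 35 (smallest limma adjusted p of the 88 genes 0.0691, for Cox6a2). The 4 sham arrays of slide 2 belong to both comparisons, so the shared genes are no separate evidence. On slide 2 most 4-week arrays are LDIR and most 8-week arrays sham, so the covariate separates week and treatment only in part. In the comparison of the sham arrays of both slides, the number that fell was 35 with all arrays. It was 27 without 8-week sham replicate A, the array with high lymphocyte markers. Without 4-week sham replicate A or B it was 20 and 19.

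**Figure D3:**
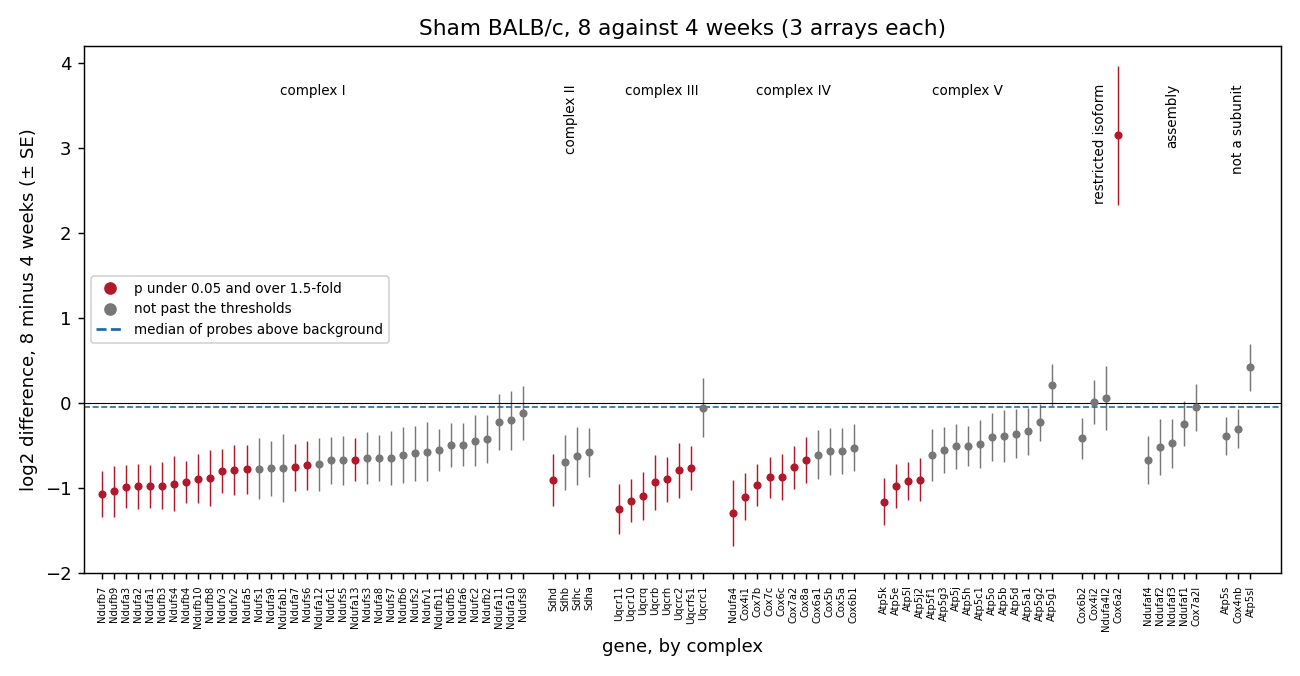
Difference of each gene above background between sham BALB/c glands at 8 and 4 weeks (3 arrays each). The y axis is the log2 difference with its standard error, genes are grouped by complex along the x axis, red points passed the thresholds, and the dashed line is the median of probes above background. Nearly all subunits lie below 0, complex III lowest with a median of -0.92, and Cox6a2 stands at 3.15.

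In complex III, the cytochrome c reductase, 7 of 8 genes fell and the median was -0.92. Uqcr11, a small accessory subunit (probe at chr10:79865745-79865804, mm9), read 7.07, 7.37 and 6.79 on the 4-week sham arrays and 5.43, 5.98 and 6.08 on the 8-week sham arrays. Uqcr10, another small subunit (chr11:4601979-4602038, mm9), read 6.27, 6.62 and 6.09 at 4 weeks and 4.95, 5.31 and 5.27 at 8 weeks. All 8-week values of both genes lay below all 4-week values. The differences were -1.25 ± 0.29 (SE; limma adjusted p 0.164) for Uqcr11 and -1.15 ± 0.25 (limma adjusted p 0.153) for Uqcr10. Uqcrfs1, the Rieske iron-sulphur protein that carries electrons, fell by 0.76 ± 0.26. Uqcrc1, a large core protein of the complex, was the exception, at 4.11, 4.19 and 3.41 and then 3.36, 4.00 and 4.18, and its groups overlapped (-0.05 ± 0.35).

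In complex IV, cytochrome c oxidase, 7 of 11 genes fell, with a median of -0.75. Ndufa4, named for complex I but now counted with complex IV (chr6:11850423-11850482, mm9), read 5.61, 6.65 and 5.58 at 4 weeks and 4.22, 4.79 and 4.93 at 8 weeks. Cox4i1, the common form of the regulatory subunit that binds ATP (chr8:123197924-123197983, mm9), read 7.57, 7.99 and 7.32 and then 6.26, 6.62 and 6.69. Again no 8-week value reached a 4-week value, and the differences were -1.30 ± 0.39 (limma adjusted p 0.234) and -1.10 ± 0.28 (limma adjusted p 0.183). Cox5a, a subunit of the matrix side, stood at -0.57 ± 0.27 and did not pass the thresholds.

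In complex V, ATP synthase, 4 of 15 genes fell, with a median of -0.50. The 4 were Atp5k, Atp5l and Atp5j2, small subunits of the membrane part, and Atp5e, the epsilon subunit of the stalk. Atp5k (chr5:108862263-108862322, mm9) read 6.47, 6.72 and 6.11 at 4 weeks and 4.97, 5.31 and 5.52 at 8 weeks, a difference of -1.16 ± 0.28 (limma adjusted p 0.170) with no overlap. The catalytic subunits did not pass the thresholds. Atp5b, the beta subunit that carries the active sites, stood at -0.39 ± 0.30 and Atp5a1, the alpha subunit, at -0.33 ± 0.27. The 3 genes for the c subunit of the proton rotor, which make the same mature protein, stood at 0.21 ± 0.25 (Atp5g1), -0.23 ± 0.22 (Atp5g2) and -0.55 ± 0.27 (Atp5g3). The other probe of Atp5g1 differed from the brightest, and the mean of both gave -0.18.

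In complex I, NADH dehydrogenase, 16 of 36 genes fell, with a median of -0.73. Ndufb7, an accessory subunit of the membrane arm, fell most and read 6.13, 6.60 and 5.90 at 4 weeks against 4.93, 5.18 and 5.29 at 8 weeks. Of the 7 core subunits, which carry the flavin and iron-sulphur clusters, 1 (Ndufv2) fell, and their median was -0.65. Of the 29 accessory subunits 15 fell, with a median of -0.76. Ndufv1, the core subunit that binds NADH, stood at -0.58 ± 0.35 and Ndufs1, the largest iron-sulphur subunit, at -0.77 ± 0.36. The differences between core and accessory subunits were not tested.

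In complex II, succinate dehydrogenase, 1 of 4 genes fell. This was Sdhd, a membrane anchor, at 5.63, 6.07 and 5.46 and then 4.38, 4.97 and 5.09, with no overlap. Sdha, the flavoprotein, stood at -0.58 ± 0.29 and Sdhb, the iron-sulphur subunit, at -0.70 ± 0.32. None of the 5 genes counted here as assembly factors fell, and their median was -0.48.

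The 17 genes that fell within slide 2 over both treatments were Ndufa4, Uqcr11, Atp5l, Uqcr10, Atp5k, Uqcrq, Cox7b, Atp5j2, Ndufa1, Ndufb4, Atp5e, Cox4i1, Cox7c, Ndufb7, Ndufa2, Ndufa3 and Ndufb3. By complex they were 6 of complex I, 3 of complex III, 4 of complex IV and 4 of complex V. No core subunit of complex I was among them, and Ndufv1 stood at 0.02 ± 0.28 and Uqcrc1 at 0.59 ± 0.27. Their differences ran from -0.60 (Ndufb3) to -0.82 (Ndufa4 and Uqcr11).

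Other genes of the pathway were taken from fixed lists. For these lists no values with slide as a block or within slide 2 are given. Their changes from 4 to 8 weeks thus cannot be told apart from slide. In sham glands 7.98% of all probes and 11.2% of those above background fell between these weeks. The lists are small, and their counts were not tested against these shares. Among the mitochondrially encoded genes, 9 of 13 fell in sham glands from 4 to 8 weeks, with a median of -0.71, from -0.61 for CYTB to -1.20 for ND4L. Of 12 regulators 3 fell, and they were Ppargc1a (-2.40 ± 0.28, limma adjusted p 0.0849), Ppargc1b (-1.15 ± 0.25) and Esrra, the gene of ERR alpha (-0.66 ± 0.26). The genes of NRF1 (Nrf1, 0.20 ± 0.27), of the DNA-binding part of GABP (Gabpa, -0.12 ± 0.27) and of the mitochondrial transcription factor Tfam (0.10 ± 0.28) did not pass the thresholds. Of 17 TCA cycle genes 4 fell, among them Pdhb, Ogdh and Dlst, with a median of -0.71. Of 28 further assembly factors and carriers 5 fell, among them both subunits of the electron transfer flavoprotein, Etfa (-1.13 ± 0.37) and Etfb (-1.23 ± 0.34). Cyc1, the cytochrome c1 of complex III, stood at -0.57 ± 0.39.

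Cell type markers moved in the same comparison, also without values that account for slide. Of all probes 7.98% fell and 5.73% rose in it. Of 10 brown adipocyte markers 6 fell, with a median of -1.54, and of 10 white adipocyte markers 7 fell, with a median of -0.90. The summed level of the brown markers ran from 6.45 to 7.37 on the 4-week sham arrays and from 4.01 to 5.25 on the 8-week sham arrays, and that of the white markers from 11.65 to 11.98 and from 10.55 to 11.05. Cidea, a lipid droplet protein of brown fat, fell by 2.45 ± 0.65, while Ucp1, the uncoupling protein that defines brown fat, read 1.80, 0.26 and -0.20 and then -3.62, -2.40 and 0.68, with overlap. Of 10 skeletal muscle markers 8 rose, their summed level running from 0.89 to 5.03 and then from 5.54 to 7.52. Of 5 macrophage markers 2 rose (Csf1r and Cd68), with a median of 0.80, and of 3 endothelial markers 1 fell (Kdr, -1.25 ± 0.24). None of the 8 luminal and none of the 6 lymphocyte markers passed the thresholds, though the lymphocyte markers had a median of 1.87 with 1 of 6 below 0. In whole tissue, fewer cells of a type and less RNA per cell cannot be told apart, and the part of these cell types in the fall of the respiratory chain genes was not tested.

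**Figure D4:**
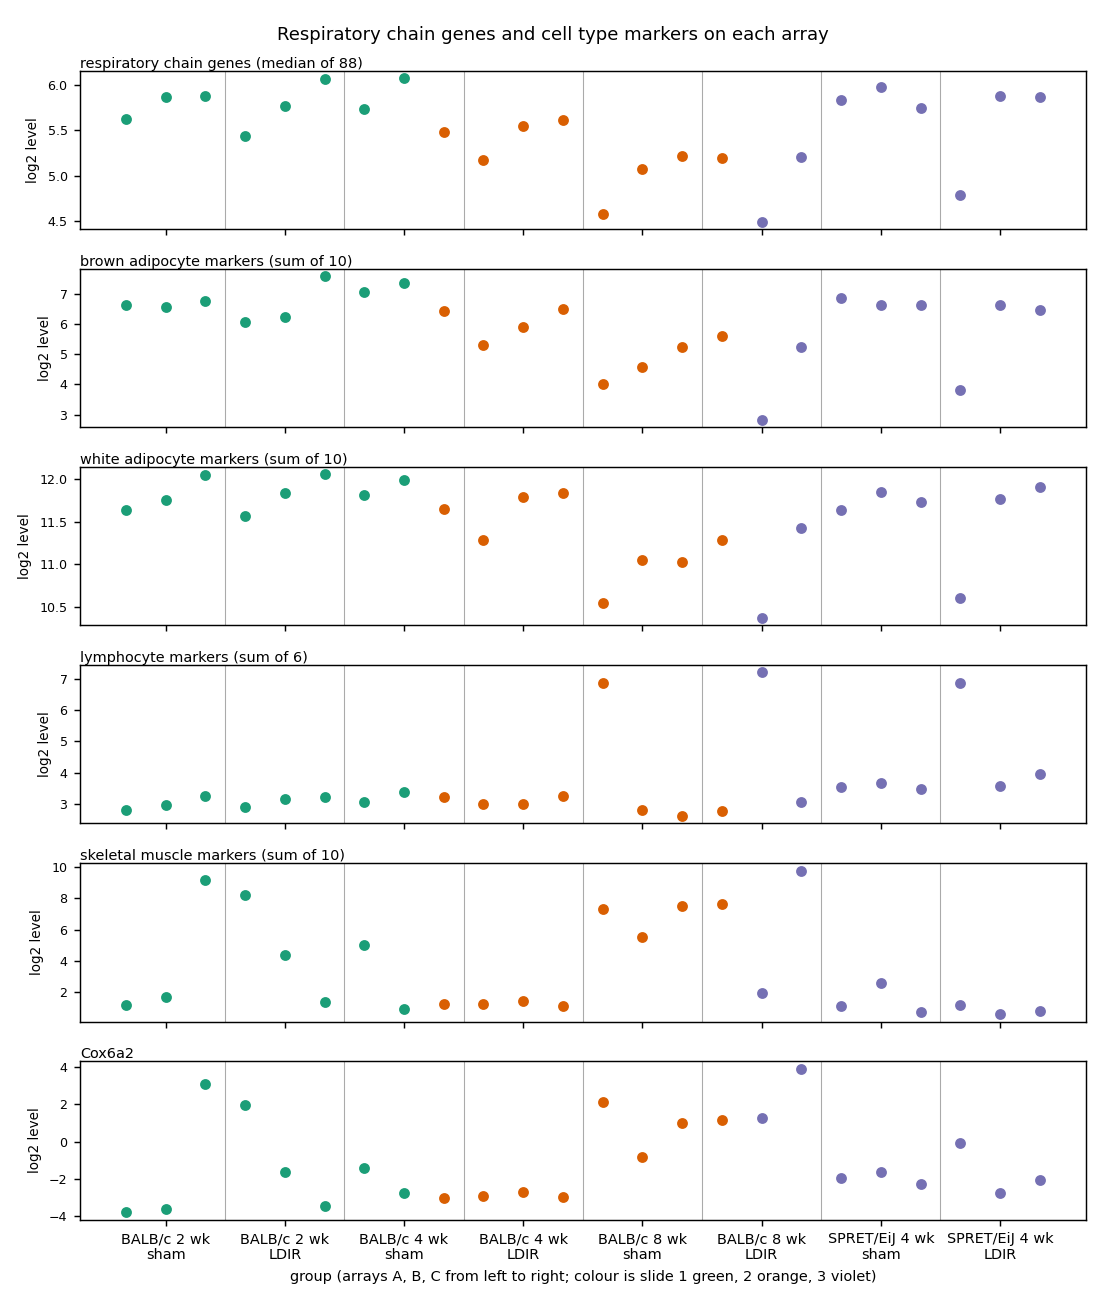
Median level of the 88 respiratory chain genes, summed level of 4 marker lists and level of Cox6a2 on each of the 24 arrays. All y axes are log2 levels relative to the 75th percentile of the array, and colour is the slide. The adipocyte sums are lowest on the arrays where the respiratory chain median is lowest, the lymphocyte sum is high on 3 arrays, and Cox6a2 is highest, at 3.90, on the 8-week LDIR array where the muscle sum is highest.

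Cox6a2, the heart and skeletal muscle form of a complex IV subunit (chr7:135349160-135349219, mm9), was the gene that rose. It read -1.41, -2.74 and -3.01 on the 4-week sham arrays and 2.09, -0.83 and 1.01 on the 8-week sham arrays, a difference of 3.15 ± 0.82 (limma adjusted p 0.193). In LDIR glands it read -2.91, -2.69 and -2.97 at 4 weeks and 1.16, 1.27 and 3.90 at 8 weeks, a difference of 4.97 ± 0.73 (limma adjusted p 0.0563). In both treatments all 8-week values lay above all 4-week values. At 2 weeks it was high on 1 of 3 sham arrays (3.10) and 1 of 3 LDIR arrays (1.93), and it was the most variable gene within groups. The muscle sum was 9.18 and 8.22 on these arrays, while on 8-week LDIR replicate B it was 1.93 with Cox6a2 at 1.27. What the muscle markers contribute was not tested.

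The other isoforms of restricted tissues showed no such rise. Cox4i2, the form of lung and of low oxygen, stood at 0.01 ± 0.26 in sham glands from 4 to 8 weeks, Ndufa4l2, a paralog of Ndufa4 known from hypoxia, at 0.06 ± 0.37 and Cox6b2, known from testis, at -0.42 ± 0.24. Cox6b2 read -0.15, 0.18 and 0.28 at 4 weeks and -0.39, -0.11 and -0.44 at 8 weeks. The sham values of both weeks overlapped in all 3 genes. Cox7b2 and Cox8c were above background on no array, so their levels have only a bound and no fold is given here.

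The same weeks were compared in LDIR glands, as a comparison added after the data were seen, with mice of its own in each group. Here 16 of 88 genes (18.2%) fell, against 16.8% of all probes and 19.8% of those above background, so the share of respiratory chain genes was near that of the array. The median was -0.39, against -0.23 over the probes above background. All 16 genes were among the 35 that fell in sham glands (45.7% of these). Ndufa4 read 5.26, 5.66 and 5.76 at 4 weeks and 4.85, 3.91 and 4.80 at 8 weeks (-1.04 ± 0.32), and Uqcrq, a small subunit of complex III, stood at -0.96 ± 0.31. Atp5k fell by 0.93 ± 0.31. Besides Cox6a2, Atp5sl, no subunit, rose (0.66 ± 0.23), against 4.11% of all probes that rose. Without 8-week LDIR replicate B, with its high lymphocyte markers, 5 genes fell and the median was -0.21, without 4-week LDIR replicate B 4 and without replicate C 2, and with slide as a block none fell. Of the markers, 4 of 6 basal epithelial and 4 of 10 skeletal muscle markers were higher at 8 weeks (medians 1.48 and 4.84), against 4.11% of all probes. Of the adipocyte markers 2 of 10 brown (median -0.98) and 2 of 10 white (median -0.58) were lower, near the 16.8% of all probes that fell. Lower too were 2 of 5 macrophage markers (median -0.58) and 1 of 3 endothelial markers. Of 5 milk protein genes 1 was higher and 1 lower, and the 6 lymphocyte markers had a median of 2.36 with none past the thresholds. The part of these cell types in the difference was not tested. The difference between the changes in sham and LDIR glands was not tested.

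From 2 to 4 weeks no respiratory chain gene passed the thresholds in sham glands, against 3.04% of all probes in either direction. At an unadjusted p under 0.05 in limma the count was 0, against 3.81% of all probes, and the methods' t-test also gave 0. The median was -0.03, and the genes with the smallest p were Cox6b2 (0.33 ± 0.18, limma adjusted p 0.984) and Ndufb2 (-0.32 ± 0.22, limma adjusted p 0.984). Without sham replicate C of 2 weeks, Cox6a2 passed. From 2 to 8 weeks 48 genes fell against 8.56% of all probes, with a median of -0.67. Without 8-week sham replicate A, the array with high lymphocyte markers, 32 fell (median -0.49), and without 2-week sham replicate B or C 28 fell in each case. That comparison uses the same 8-week arrays as the one from 4 weeks, and in it slide and week cannot be told apart.

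**Figure D5:**
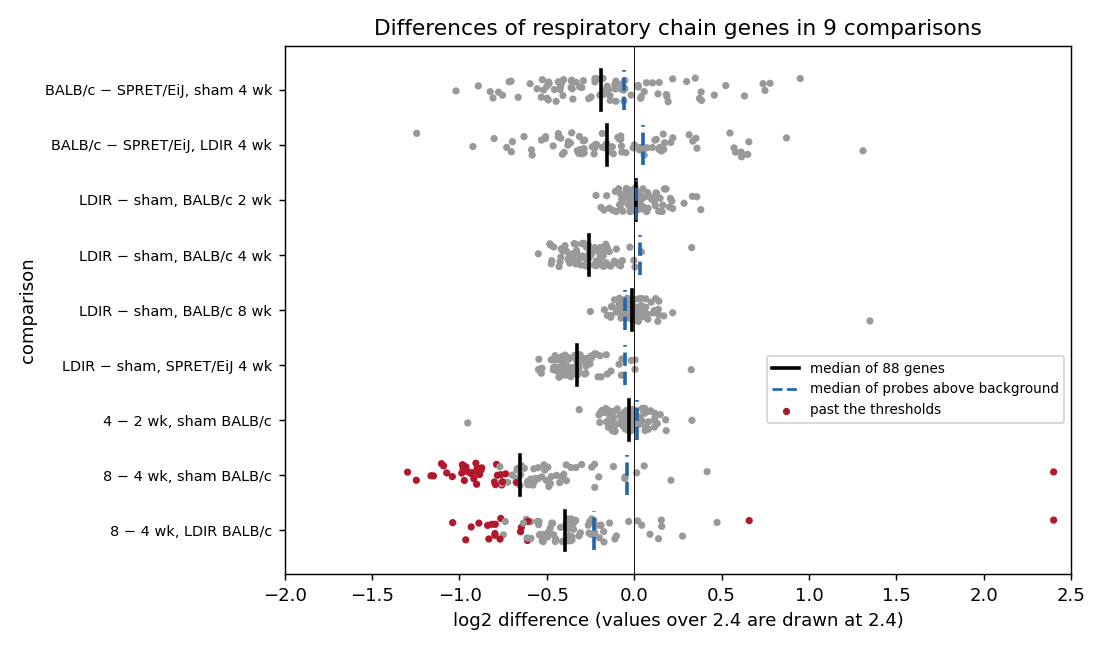
Log2 difference of the 86 genes above background in 9 comparisons, with a grey point per gene, red where it passed the thresholds of the comparison. Black lines are medians over the 88 genes and dashed blue lines medians over probes above background in that comparison. The medians of the genes lie furthest from those of the probes from 4 to 8 weeks in sham glands (-0.65 against -0.04), after LDIR at 4 weeks in BALB/c (-0.26 against 0.04) and in SPRET/EiJ (-0.33 against -0.05).

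LDIR was compared with sham in BALB/c to ask how the genes respond to a low dose. At 4 weeks 85 of 88 genes lay below 0 after LDIR, against 47.9% of all probes, with a median of -0.26 against 0.04 over the probes above background, but none passed the thresholds, which 4.83% of all probes did. None had an unadjusted p under 0.05 in limma (6.18% of all probes), and the methods' t-test gave 0 calls. Atp5e read 6.63, 6.83 and 6.21 in sham and 6.03, 6.02 and 6.19 in LDIR glands (-0.48 ± 0.20, limma adjusted p 0.775). Ndufb7 read 6.13, 6.60 and 5.90 and 5.65, 5.76 and 5.79 (-0.48 ± 0.22, limma adjusted p 0.775). In both genes all LDIR values lay below all sham values, as in 5 genes in all, against 5.11% of the probes above background. By complex the median ran from -0.18 in complex V to -0.34 in complexes II and III, and Uqcrc1 had the largest difference (-0.55 ± 0.27). All LDIR arrays were on slide 2 and sham replicate C with them. With slide as a block the median was 0.01 with 42 of 88 genes below 0, and without sham replicate C 7 genes passed the thresholds, all lower.

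Markers differed in that comparison too, in which 4.83% of all probes passed the thresholds in either direction. After LDIR 4 of 10 brown adipocyte markers were lower past the thresholds, Elovl3 (-2.52 ± 0.63) and Cidea (-1.88 ± 0.55) most, 1 of 10 white adipocyte markers was lower and 3 of 5 macrophage markers were higher. Of 6 basal epithelial markers 2 were lower, the keratins Krt5 (-0.73 ± 0.29) and Krt14 (-0.93 ± 0.30). Of 5 milk protein genes 2 were higher, the caseins Csn1s1 (1.64 ± 0.66) and Csn2 (2.81 ± 1.16), and of 10 skeletal muscle markers 1 was (Myh2, 0.91 ± 0.24). The summed brown markers ran from 5.29 to 6.50 in LDIR and from 6.45 to 7.37 in sham glands, and the summed macrophage markers from 5.54 to 6.10 and from 4.60 to 5.44. Their part in the respiratory chain difference was not tested. Of the 13 mitochondrially encoded genes 0 passed, with a median of -0.15, and of 12 regulators 0, with a median of -0.33.

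At 2 and 8 weeks in BALB/c the genes lay close to 0 as a group. At 2 weeks the median was 0.01 and the range from -0.41 to 0.38, and no gene passed the thresholds, against 3.05% of all probes. Ndufa10 (0.36 ± 0.22, limma adjusted p 0.869) and Ndufa11 (0.29 ± 0.18, limma adjusted p 0.869), accessory subunits of complex I, had the smallest p. At 8 weeks the median was -0.01, again with no gene past the thresholds, against 1.92% of all probes. At both times 0 genes had an unadjusted p under 0.05 in limma, against 5.03% of all probes at 2 weeks and 1.97% at 8 weeks, and 0 passed in the methods' t-test. Cox6a2 (1.35 ± 1.03, limma adjusted p 1) had the smallest p at 8 weeks, followed by Cox8c, which is below background. The 8-week median was -0.19 without sham replicate A and 0.21 without LDIR replicate B, the arrays with high lymphocyte markers, and 0.21 with slide as a block.

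In SPRET/EiJ at 4 weeks 83 of 88 genes lay below 0 after LDIR, against 46.6% of all probes, with a median of -0.33 against -0.05 over the probes above background, and none passed the thresholds, against 2.21% of all probes. None had an unadjusted p under 0.05 in limma (2.22% of all probes), and the methods' t-test gave 0. The 3 LDIR arrays had medians of 4.79, 5.88 and 5.87 and the sham arrays of 5.84, 5.98 and 5.74, so that replicate A stood apart. Uqcr11 showed the same, at 5.86, 7.21 and 7.26 in LDIR and 7.06, 7.29 and 7.20 in sham glands. Without LDIR replicate A, the array with high lymphocyte markers and a brown adipocyte sum of 3.82 against 6.48 and 6.63 on the other LDIR arrays, the median was 0.02 with 30 genes below 0. Of the pair with the smallest p, Cox7b2 is below background and Atp5s is no subunit (-0.55 ± 0.37, limma adjusted p 0.972).

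The difference between the LDIR responses of the strains at 4 weeks was tested as an interaction over 12 arrays. No respiratory chain gene passed the thresholds, against 3.59% of all probes, and none had an unadjusted p under 0.05 in limma (3.6% of all probes). The median interaction (BALB/c minus SPRET/EiJ) was 0.09, and -0.29 without SPRET/EiJ LDIR replicate A. Over the alternative settings with no array left out it ran from 0.05 to 0.35. Its BALB/c part sets LDIR arrays on slide 2 against sham replicates A and B on slide 1 and C on slide 2. Cox4i2 (0.40 ± 0.30, limma adjusted p 0.955) and Cox7b2 had the smallest p.

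Between the strains few of the genes differed, and these in both directions. No slide held 4-week arrays of both strains, so slide and strain cannot be told apart in the differences below. In sham glands at 4 weeks none passed the strain thresholds (unadjusted p under 0.001 and over 1.5-fold), which 8.89% of all probes did, and the methods' t-test also gave 0. At an unadjusted p under 0.05 in limma 16 genes were lower and 5 higher in BALB/c, against 16.1% and 16% of all probes, and 6 genes (6 of 88, against 18.8% of all probes) had an adjusted p under 0.05. Lower in BALB/c were Ndufa6 (-1.02 ± 0.19, limma adjusted p 0.0145), Atp5o (-0.82 ± 0.20, limma adjusted p 0.0371) and Cox7c (-0.71 ± 0.16, limma adjusted p 0.0296). Higher in BALB/c were the brightest probe of Ndufb2 (0.95 ± 0.20, limma adjusted p 0.0207), Cox7a2l (0.78 ± 0.18, limma adjusted p 0.0286) and Atp5a1 (0.75 ± 0.18, limma adjusted p 0.0354).

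Ndufa6, an accessory subunit of complex I (chr15:82181444-82181503, mm9), read 4.63, 4.93 and 4.40 in BALB/c and 5.67, 5.61 and 5.75 in SPRET/EiJ sham glands. Ndufb2, another accessory subunit (chr6:39548336-39549425, mm9), read 5.47, 5.43 and 5.06 and 4.42, 4.53 and 4.17. In both the strains did not overlap. The other probe of Ndufb2 went the opposite way (-0.92 ± 0.20), and the mean of both gave 0.02, so no direction can be given for the gene. Of the other 2 probes of Cox7a2l 1 stood at 0.96 ± 0.18 and 1 at 0.13 ± 0.17, while Cox7c had 1 at -0.53 ± 0.19 and a dim 1 at 0.63 ± 0.17. Cox7a2l is known to help complexes III and IV assemble into larger units, and such units were not measured here. Of the catalytic partners of complex V, Atp5a1 stood at 0.75 and Atp5b at -0.75 ± 0.22 (limma adjusted p 0.0601). The median over the 88 genes was -0.19 against -0.06 over the probes above background, with 63 of 88 genes below 0 against 55.6% of all probes, and was -0.02 with quantile normalization. It was -0.04 without BALB/c sham replicate C, -0.31 without replicate B and -0.11 without SPRET/EiJ sham replicate B. Markers differed between the sham strains too. The 8 luminal epithelial markers had a median of 1.7 with 0 below 0, and the 10 skeletal muscle markers 1.8 with 2 below 0. The 10 brown adipocyte markers had a median of -0.84 with 7 below 0, and the 5 milk protein genes -2.55 with 5 below 0. Past the strain thresholds, which 8.89% of all probes passed, 1 brown marker was higher and 1 lower, and so were 1 and 1 lymphocyte markers. Also higher were 1 white adipocyte marker (Plin1) and 1 basal epithelial marker (Acta2). No luminal, muscle, milk, macrophage, erythrocyte or endothelial marker passed. The part of these cell types was not tested.

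After LDIR at 4 weeks the strains gave a median of -0.16, with no gene past the strain thresholds against 5.67% of all probes. Without SPRET/EiJ LDIR replicate A, the array with high lymphocyte markers, it was -0.49 with 74 of 88 genes below 0. It turned to 0.03 without SPRET/EiJ LDIR replicate B and to 0.02 without replicate C, and was -0.06 without BALB/c LDIR replicate A. In limma 5 genes were higher and 3 lower in BALB/c at an unadjusted p under 0.05, against 14.7% and 10.4% of all probes, and the methods' t-test called 1, Atp5sl. The brightest probe of Ndufb2 stood at 1.31 ± 0.39 (limma adjusted p 0.0837) but the mean of its probes at 0.41, and Atp5sl stood lower in BALB/c (-0.80 ± 0.20, limma adjusted p 0.0532). Slide and strain cannot be told apart there either. Of the mitochondrially encoded genes 3 of 13 were higher in BALB/c sham glands, among them ND2, which read 8.14, 7.75 and 7.71 in BALB/c and -2.51, -1.60 and -2.15 in SPRET/EiJ. Because SPRET/EiJ is of another species, a base difference under a probe and a difference in RNA level cannot be told apart in any comparison of the strains.

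A second reading came from the 44 further probes of 30 of these genes. In sham glands from 4 to 8 weeks 38 of the 44 had the sign of the brightest probe, with a median of -0.78. After LDIR at 4 weeks in BALB/c 38 did, with a median of -0.22, and in SPRET/EiJ 31, with a median of -0.32. Between the sham strains 30 of the 44 did. Probes of a gene share its RNA and its array and are not replicates.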

How the data were processed

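Mammary gland RNA of 24 mice (8 groups of 3) was hybridised to 1-colour Agilent arrays. The deposited intensity values came from the scanner software of the authors (Feature Extraction 10.10.1.1), which had background-subtracted and detrended, with mm9 coordinates. The authors also deposited log2 values normalized to the 75th percentile (GeneSpring), and 100% of them lay within 0.01 of those used here after centring. From 59305 spots that are no controls, 3777 outlier spots over all arrays were left out, 0 were saturated, spots of a probe were averaged on the log2 scale, and the 75th percentile of each array was subtracted. The number of arrays limits the precision.

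Groups were compared with limma 3.58.1 (R 4.3.3) on their own arrays over all probes, with the thresholds of the methods and Benjamini-Hochberg adjustment. The labels do not say that mice of different cages or days were used, so p-values cover the spread between these mice. The procedure was tested on simulated data. Members and lists were chosen with earlier results of these data known. Genes named are 13 core subunits and 6 restricted isoforms, and in each comparison the 3 that rose and the 3 that fell most past the thresholds without overlap, or else the 2 with the smallest p. Others were named after their values were seen. Alternatives were normexp (offset 50), quantile normalization, outlier spots kept, the deposited log2 values, a filter to detected probes, blocks for replicate or slide, the methods' t-test, a joint fit of all 24 arrays, the mean of a gene's probes and each array left out. Figures were drawn with matplotlib 3.10.9.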

Additional observations from a re-analysis of the deposited data

How the results depend on the processing

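The median of the respiratory chain genes in sham glands from 4 to 8 weeks stayed below 0 in every setting run. The number past the thresholds, 36 in the report, was 1 with slide as a block, 2 in a joint fit of the 24 arrays that also blocks on slide (Ndufa1 and Atp5l), 1 on the slide 2 arrays alone and 18 on the slide 2 arrays of both treatments (median -0.27), and from 20 to 40 with an array left out. In LDIR glands the count of 18 became 10 with the methods' t-test, 1 with slide as a block and 1 (Atp5l) in the joint fit with slide, and from 3 to 22 with an array left out. From 2 to 8 weeks the count of 48 became 0 (median -0.26) in the joint fit with slide, and from 28 to 55 with an array left out.

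Counts of 0 changed in other comparisons. Between sham strains 5 genes passed with normexp, 3 with quantile normalization, 1 (Ndufa6) with slide as a random block and 2 in the joint fit, and the median became -0.83 with slide in that fit. Between LDIR strains 1 passed with normexp, 1 with the methods' t-test (Atp5sl in both) and 3 in the joint fit. With an array left out the count ran from 0 to 7 for LDIR in BALB/c at 4 weeks, 0 to 1 in SPRET/EiJ, 0 to 1 from 2 to 4 weeks in sham glands and 0 to 1 for the interaction (median from -0.29 to 0.27).

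Some single genes turned in sign. From 4 to 8 weeks in sham glands Uqcrc1 became 0.03 with normexp, 0.07 with quantile normalization, 0.44 with the slide block, whether alone or in the joint fit, and also on the slide 2 arrays alone, and 0.59 on the slide 2 arrays of both treatments, with -0.30 to 0.19 over arrays left out. Cox4i2 became -0.07 and -0.01 with normexp and quantile normalization, -0.26 in the 3 settings with slide and -0.17 on slide 2 with both treatments (-0.14 to 0.15). Ndufa4l2 became -0.14 in the settings with slide (-0.20 to 0.41), Ndufv1, at -0.58 in the report, 0.02 on slide 2 with both treatments, and Atp5g1 -0.18 as the mean of its probes. Cox7b2 and Cox8c, below background, became -0.03 and -0.24 with normexp and -0.06 and -0.05 on slide 2 with both treatments (-0.42 to 0.90 and -0.10 to 0.61). These values below background are not read as changes. The causes were not tested.

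Replicate letters are shared between groups, but same-letter arrays did not deviate together in all 3 letters of any comparison (from -0.07 to 0.08 and -0.13 in sham glands from 4 to 8 weeks), so the letters count as names. With the replicate block 24 genes passed from 4 to 8 weeks in sham glands, 12 in LDIR glands and 47 from 2 to 8 weeks, and 0 in the other comparisons.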
